A study of Mus musculus with 8 samples.

Results

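The genes described here encode the subunits of the 5 protein complexes of oxidative phosphorylation, as far as they are encoded in the nucleus and follow the standard names. They were chosen by symbol from a table of RNA-seq values for 18020 genes and unnamed loci: Nduf names followed by a, b, c, s or v and a number for complex I, Sdha to Sdhd for complex II, names beginning Uqcr and Cyc1 for complex III, names beginning Cox4i, Cox5, Cox6, Cox7 or Cox8 for complex IV, and names beginning Atp5 for complex V. In all, 83 genes matched, 36 of complex I, 4 of complex II, 9 of complex III, 17 of complex IV and 17 of complex V. The name rule itself uses no measured value, though it was set with earlier results of these data known. The subunits encoded by mitochondrial DNA were not analysed here, since 0 of these 13 genes had a row.

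The RNA came from the bone marrow of leukaemic mice that had received transplanted B cells transformed by BCR-ABL1, a fusion kinase found in part of acute lymphoblastic leukaemias of B cells (B-ALL). KO_LPS (n = 3) were libraries from mice given Aid KO cells with LPS treatment, WT_LPS (n = 3) from mice given Aid WT cells with LPS treatment, and WT_PBS (n = 2) from mice given Aid WT cells with PBS treatment. BCR-ABL1+ cells were thus part of every sample, beside whatever cells of the host the marrow still held, and the labels give neither the host's strain nor its age. LPS, lipopolysaccharide, comes from the outer membrane of Gram-negative bacteria and sets off inflammation through Toll-like receptor 4, and PBS is phosphate-buffered saline, the vehicle. The series text words the treatment as that of the transplanted cells, and no Aid KO group with PBS was analysed here. The labels do not say whether the transplanted cells of a group were separately transformed cultures, and each p-value rests only on how far these libraries spread, which may be technical. The study asked how inflammation and Aid bear on the growth of this leukaemia.

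In oxidative phosphorylation, complex I takes electrons from NADH and complex II takes them from succinate, and both pass them to ubiquinone. Complex III passes them on to cytochrome c and complex IV from there to oxygen. Complexes I, III and IV pump protons across the inner mitochondrial membrane, and complex V, the ATP synthase, lets the protons back to make ATP. Complex II is wholly encoded in the nucleus, and its enzyme is also a step of the tricarboxylic acid cycle. In the marrow, growing lymphoblasts have active mitochondria, whereas mature neutrophils hold few and live mainly on glycolysis.

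Levels were given as FPKM, the fragments of a gene divided by its transcript length and by the library's total, so that genes can be compared per length. Sequencing depth in reads is unknown. The totals were between 606576 and 700238 FPKM, and 15540 to 15894 rows were above 0. KO_LPS replicates 1 and 2 and WT_LPS replicate 1 had the highest totals, at 700238, 678833 and 689299 FPKM. The other libraries had totals of 606576 to 636907 FPKM. Of the B-lineage marker genes, 10 of 10 had a row, with 0 at 0 FPKM in any library. They summed to 9091, 7605 and 6404 FPKM in KO_LPS, 7621, 6352 and 7030 FPKM in WT_LPS, and 7116 and 6320 FPKM in WT_PBS. The labels name the cell type as B lymphocyte, but 13 of 13 neutrophil markers were above 0 FPKM in every library and summed to 5898 to 29533 FPKM. In bulk RNA, fewer cells of a type cannot be told apart from less RNA per cell. The libraries did not fall into their groups: 60.5% of the variance lay on the first principal component, where KO_LPS replicates 1 and 2 and WT_LPS replicate 1 had scores of 34.5, 50.02 and 17.4, against -21.1 for KO_LPS replicate 3, -30.1 and -14.2 for the other WT_LPS libraries and -1.30 and -35.1 for WT_PBS. The numbers in the sample names were 2, 5 and 8 in KO_LPS, 6, 40 and 100 in WT_LPS and 1 and 7 in WT_PBS, and the 4 libraries with a number of 6 or lower had the 4 highest scores; the labels do not say that these numbers mark a batch. Medians of the members without the 3 libraries with positive scores, and with a term for the number, are given with each comparison. That term only separates numbers of 6 or lower from higher ones, the same split that holds the 4 highest scores apart.

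As a group, the subunit genes were among the most highly expressed genes of the marrow. Of the 83, 79 had a mean of at least 0.5 FPKM and were tested, and 63 of these 79 had a mean level over 100 FPKM, against 937 of all 12061 genes tested. The median level was 185 FPKM over these 79 members and 11.5 FPKM over all genes tested. By complex, the median level was 123 FPKM for complex I, 102 FPKM for complex II, 141 FPKM for complex III, 377 FPKM for complex IV and 377 FPKM for complex V. The complexes overlapped in their levels, and within complex I the 7 core subunits that carry out electron transfer had a median of 85.2 FPKM while the 28 supernumerary subunits had 137 FPKM. Within complex V the 5 subunits of F1, the catalytic head with its central stalk, had a median of 502 FPKM, and the 12 of the membrane part and peripheral stalk had 347 FPKM. Subunit transcripts were short, with a median length of 875 bases against 3054 bases over the genes tested whose length was known, and an error in the length used for FPKM would move a level by the same factor.

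**Figure D1:**
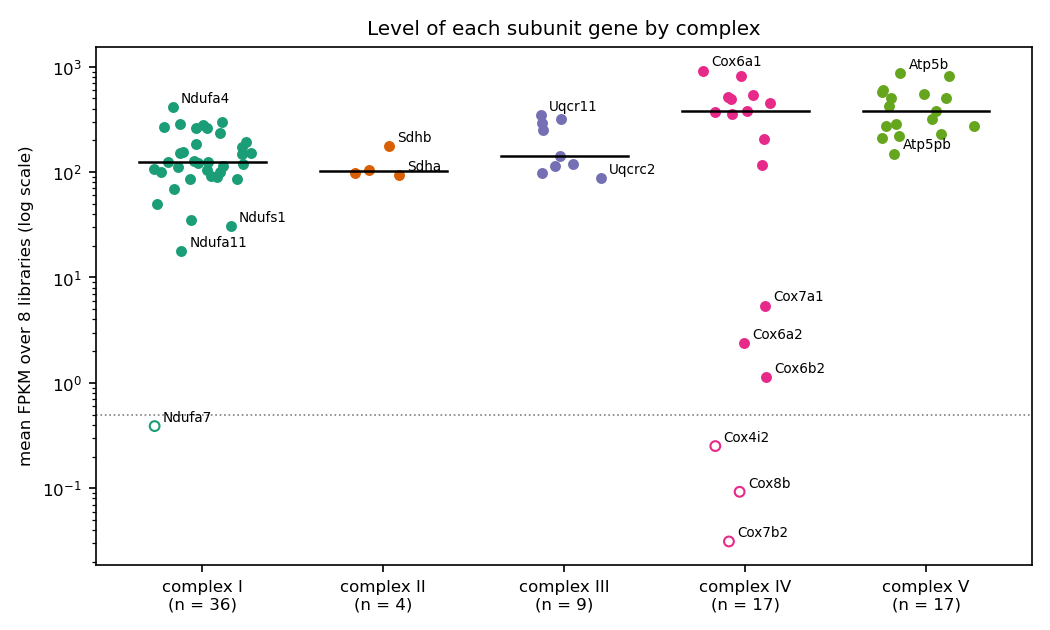
Mean FPKM over the 8 libraries (log axis) of each of the 83 subunit genes, by complex. Each point is a gene, open points are the 4 genes below the filter of 0.5 FPKM (dotted line), and bars are the medians of the tested genes, which are highest for complexes IV and V.

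At the top of the levels stood Cox6a1 of complex IV, the form of subunit 6a used in most tissues, with a mean of 919.6 FPKM over the 8 libraries. Next was Atp5b, the catalytic beta subunit of ATP synthase, with 878 FPKM, followed by Atp5g2, a source of the membrane c-ring protein, with 823 FPKM. Among the tested members, the lowest of each complex were Ndufa11 with 17.8 FPKM, Sdha with 93.1 FPKM, Uqcrc2 with 88.0 FPKM, Cox6b2 with 1.13 FPKM and Atp5pb with 149.8 FPKM. Below the filter were Cox4i2, Cox7b2, Cox8b and Ndufa7. Ndufa7, a supernumerary subunit of complex I, was listed at 0 FPKM in 7 of 8 libraries and at 3.11 FPKM in WT_LPS replicate 2, while every other member of complex I had a value above 0 in each library. A listed 0 in such a table can be a failed estimate, and no level of Ndufa7 is drawn from it.

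Promoters are shown for 5 members of complexes I, II, IV and V, because most members moved together across libraries. These 5 include the highest member, 2 complex II genes that differed in their order of libraries, and the highest of the c-ring genes. The last is a complex I gene with 3 matches. They were chosen after their values were seen, and all 5 hold a match to the NRF1 core described below. RefSeq promoter windows on GRCm38.p6, from 250 bases before to 50 bases after the transcription start, were matched to 68 of the 83 members by gene number. Each was searched on both strands for the core bound by NRF1 (GCGC, any base, TGCGC), for the core CCGGAAG bound by ETS factors such as GABP (NRF2), and for the core AAGATGG bound by YY1, where no core contains another. Read on the other strand, the NRF1 core is GCGCA, any base, GCGC and the ETS core is CTTCCGG. NRF1 and GABP are factors known for binding the promoters of respiratory chain genes. The lines below give the 250 bases before the start, 5′ to 3′ on the gene's strand, with matches to the NRF1 and ETS cores in capitals. They lie at chr5:115348959-115349208, minus strand for Cox6a1, chr15:102671048-102671297, minus strand for Atp5g2, chr9:50603850-50604099, minus strand for Sdhd, chr13:74350241-74350490, minus strand for Sdha and chr16:37654369-37654618, minus strand for Ndufb4.
Cox6a1: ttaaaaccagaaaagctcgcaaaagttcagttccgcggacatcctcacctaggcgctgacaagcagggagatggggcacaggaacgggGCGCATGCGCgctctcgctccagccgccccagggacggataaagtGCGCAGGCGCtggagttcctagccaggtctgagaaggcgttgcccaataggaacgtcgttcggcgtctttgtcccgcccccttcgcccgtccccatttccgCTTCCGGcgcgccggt
Atp5g2: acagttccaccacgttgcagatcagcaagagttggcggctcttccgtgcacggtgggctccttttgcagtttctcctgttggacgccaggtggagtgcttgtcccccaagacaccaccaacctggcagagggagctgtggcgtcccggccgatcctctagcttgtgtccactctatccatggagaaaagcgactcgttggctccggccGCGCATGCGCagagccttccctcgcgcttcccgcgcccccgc
Sdhd: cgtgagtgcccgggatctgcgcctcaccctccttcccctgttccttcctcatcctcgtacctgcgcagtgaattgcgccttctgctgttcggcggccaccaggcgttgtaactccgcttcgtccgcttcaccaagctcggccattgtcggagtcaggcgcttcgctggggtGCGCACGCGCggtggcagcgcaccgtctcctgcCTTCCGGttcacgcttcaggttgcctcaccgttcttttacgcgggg
Sdha: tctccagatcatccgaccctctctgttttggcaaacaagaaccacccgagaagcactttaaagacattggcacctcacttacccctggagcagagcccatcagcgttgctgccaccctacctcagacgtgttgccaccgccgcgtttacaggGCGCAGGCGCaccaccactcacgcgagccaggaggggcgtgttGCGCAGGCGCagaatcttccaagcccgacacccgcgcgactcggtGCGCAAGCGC
Ndufb4: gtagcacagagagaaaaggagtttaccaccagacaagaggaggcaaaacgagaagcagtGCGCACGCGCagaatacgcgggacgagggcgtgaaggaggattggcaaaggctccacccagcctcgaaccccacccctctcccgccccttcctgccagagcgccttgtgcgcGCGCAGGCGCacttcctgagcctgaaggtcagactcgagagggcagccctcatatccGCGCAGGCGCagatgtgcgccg

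Among the members with a window, 17 of 68 (25%) held an NRF1 core, against 12.01% of the 9266 tested genes with a window and 5.19% of all 27025 genes with one. The ETS core stood in 17 of 68 (25%), against 21.1% of tested genes and 9.93% of all genes, and the YY1 core in 11 of 68 (16.2%), against 8.62% and 7.28%. By complex, the NRF1 core was found in 7 of 32 genes of complex I, 2 of 3 of complex II, 1 of 5 of complex III, 1 of 13 of complex IV and 6 of 15 of complex V. Cox6a1, the highest member, held NRF1 cores that begin 162 and 117 bases before the start and an ETS core 16 bases before it. Atp5g2 held an NRF1 core 42 bases before its start. Both subunits of complex II shown held the NRF1 core, Sdhd at 79 bases with an ETS core at 46 bases, and Sdha at 98, 55 and 10 bases. Ndufb4, a supernumerary subunit of the membrane arm of complex I, also had 3 matches, at 191, 79 and 22 bases. The promoters shown are thus not typical of the members, of which 17 of 68 held an NRF1 core. Sdhb, also of complex II, had 0 matches in the 250 bases before its start and an ETS core after it. The sequences are a description of these windows, and no binding was measured.

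Most members shared an order of libraries that cut across the groups. In KO_LPS replicates 1, 2 and 3, the median deviation of the 79 members from their own mean was 0.24, 0.22 and -0.03 on the log2(FPKM + 1) scale, in WT_LPS it was 0.16, -0.25 and -0.01, and in WT_PBS -0.11 and -0.21. Over all genes tested the deviations had the opposite sign in all 8 libraries, at -0.11, -0.12 and 0.07 in KO_LPS, -0.08, 0.08 and 0.02 in WT_LPS, and 0.03 and 0.09 in WT_PBS. Of 79 members, 73, 73 and 34 were above their own median in the KO_LPS libraries, 71, 4 and 43 in the WT_LPS libraries, and 12 and 6 in the WT_PBS libraries. KO_LPS replicate 1 was the highest library for 35 members, KO_LPS replicate 2 for 24 and WT_LPS replicate 1 for 12, while WT_LPS replicate 2 was the lowest for 48 and WT_PBS replicate 2 for 18. For 57 of 79 members, the values of KO_LPS replicates 1 and 2 and WT_LPS replicate 1 all lay above those of the other 5 libraries, which was so for 9.23% of all genes tested. These counts were 25 of 35 for complex I, 2 of 4 for complex II, 6 of 9 for complex III, 10 of 14 for complex IV and 14 of 17 for complex V. These are the libraries with positive scores on the first component. As a share of all FPKM of a library, the 79 members took 3.38%, 3.49% and 3.0035% in KO_LPS, 3.22%, 2.67% and 3.04% in WT_LPS, and 2.84% and 2.76% in WT_PBS.

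**Figure D2:**
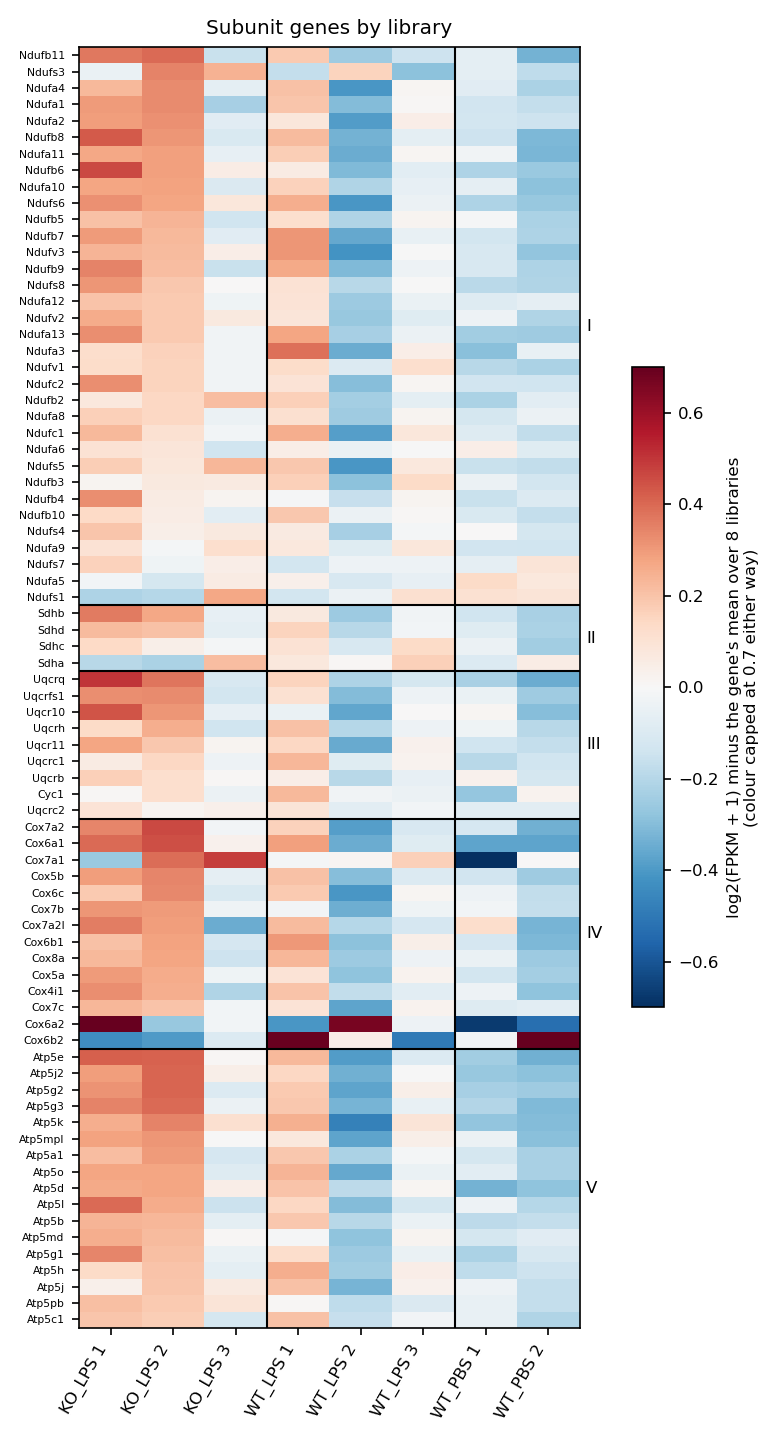
Deviation of 78 of the 79 tested subunit genes (rows, grouped by complex) from their own means over 8 libraries (columns), as log2(FPKM + 1), with the colour capped at 0.7 either way. KO_LPS replicates 1 and 2 and WT_LPS replicate 1 are red for most rows and WT_LPS replicate 2 and WT_PBS replicate 2 are blue, while Sdha, Ndufs1, Ndufa5, Cox7a1, Cox6a2 and Cox6b2 are among the rows in another order.

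Marker genes of other cells also differed between libraries. The 13 neutrophil markers summed to 6937, 5898 and 14991 FPKM in KO_LPS, 29533, 9559 and 9086 FPKM in WT_LPS, and 12916 and 16472 FPKM in WT_PBS, with 0 markers at 0 FPKM. The library with the highest neutrophil sum, WT_LPS replicate 1, and those with the lowest sums, KO_LPS replicates 1 and 2, were the 3 libraries in which the subunit genes were highest. Of 9 erythroid markers with a row, the sum, led by the globin genes Hba-a1 and Hbb-bs, was 942, 770.2 and 61.7 FPKM in KO_LPS, 256, 166 and 76.4 FPKM in WT_LPS, and 252 and 136 FPKM in WT_PBS. Of these 9, Epb42 was at 0 FPKM in KO_LPS replicate 1 and WT_PBS replicate 2. Erythroid sums were thus also highest in KO_LPS replicates 1 and 2, with WT_LPS replicate 1 close to WT_PBS replicate 1. The 8 monocyte and macrophage markers summed to 462, 433 and 738 FPKM in KO_LPS, 822, 716 and 531 FPKM in WT_LPS, and 565 and 773 FPKM in WT_PBS, and the 8 T and NK cell markers to 12.9 to 35.04 FPKM over all libraries. The B-lineage sums given above were highest in KO_LPS replicate 1 (9091 FPKM), WT_LPS replicate 1 (7621 FPKM) and KO_LPS replicate 2 (7605 FPKM). These were the 3 libraries in which the subunit genes were highest, and the other libraries had B-lineage sums of 6320 to 7116 FPKM. The part of any of these cell types in the levels of the subunit genes, and in the differences given below, was not tested.

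**Figure D3:**
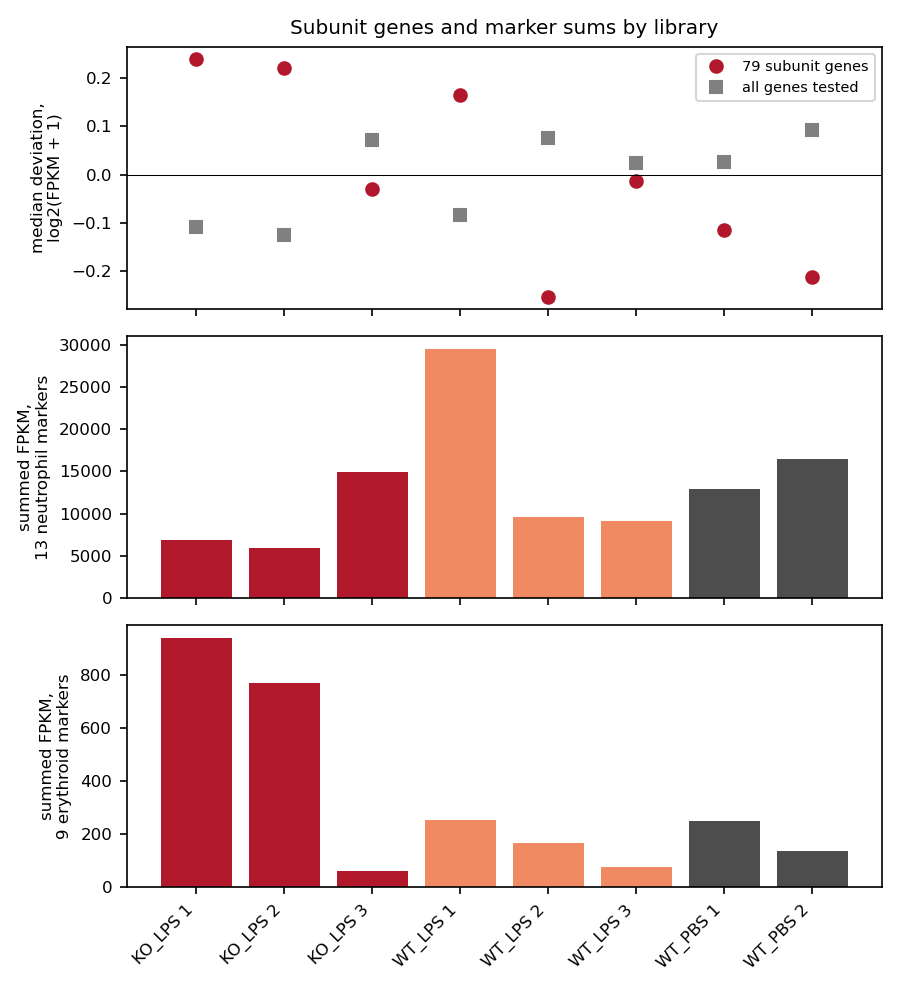
For each library, from top to bottom, the median deviation of the 79 subunit genes (circles) and of all 12061 genes tested (squares) on the log2(FPKM + 1) scale, the summed FPKM of 13 neutrophil markers, and the summed FPKM of 9 erythroid markers. The subunit genes are highest in KO_LPS replicates 1 and 2 and WT_LPS replicate 1, where all genes are lowest.

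The first comparison set Aid KO leukaemia against Aid WT leukaemia where both had LPS. In this comparison no subunit gene passed the threshold of 0.05 on the adjusted p: 0 of 79 members, against 0.0829% of all 12061 genes (10 genes; limma, Benjamini-Hochberg). At an unadjusted p under 0.05 stood 3 members, Ndufb6, Atp5pb and Cox7b, against 5.69% of all genes. The difference KO_LPS minus WT_LPS was above 0 for 73 of 79 members, against 42% of all genes, and the 6 members below 0 were Ndufb10, Ndufs1, Sdha, Cyc1, Uqcrc1 and Cox6b2. The median difference was 0.19 for the members and -0.06 for all genes on the log2(FPKM + 1) scale. In 2 members, Ndufs7 and Atp5pb, the values of the groups did not overlap and KO_LPS was higher, against 4.82% of all genes, and in 0 members was KO_LPS lower without overlap, against 4.32%. By complex, the median difference was 0.18 for complex I, 0.08 for complex II, 0.17 for complex III, 0.21 for complex IV and 0.25 for complex V. The median moved to 0.07 without WT_LPS replicate 2, the library in which the members were lowest, against -0.02 for all genes. It was 0.28 without WT_LPS replicate 1 and 0.28 without KO_LPS replicate 3, against -0.10 and -0.12. With the 3 libraries with positive scores on the first component left out, 1 KO_LPS library remained. The median was then 0.11, with 64 of 79 members above 0, against 0.02 for all genes. After trends with transcript length and GC content were removed it was 0.08, with 61 of 79 above 0, against -0.06. Quantile normalization gave 0.14, with 67 above 0, against 0.005. Median-ratio scaling gave 0.26, with 77 above 0, against 0.009. The count of members with KO_LPS higher without overlap also rested on single libraries. Without KO_LPS replicate 3 it was 48 of 79, against 16.6% of all genes, and without WT_LPS replicate 1 it was 25 of 79, against 9.15%. Without KO_LPS replicate 1, KO_LPS replicate 2 or WT_LPS replicate 3 it was 4 of 79, against 7.59%, 6.69% and 6.46% of all genes. Without WT_LPS replicate 2 it was 3 of 79, against 8.61%. With a term for the number in the sample name the median was 0.12, with 64 of 79 members above 0, against -0.008 for all genes. The 42% of all genes above 0 belongs to the fit given first, not to these settings.

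The second comparison set LPS against vehicle where the cells had Aid. Again 0 of 79 members passed (limma, adjusted p = 0.9998 for each), and the threshold was passed by 0% of all 12061 genes; 0 members had an unadjusted p under 0.05, against 1.18% of all genes (142). The difference WT_LPS minus WT_PBS was above 0 for 71 of 79 members, against 38.5% of all genes, and the 8 members below 0 were Ndufa5, Ndufs1, Ndufs4, Ndufs7, Uqcrb, Cox6b2, Cox7b and Cox7c. The difference had a median of 0.12 for the members and -0.06 for all genes. In 10 members (among them Ndufa9, Ndufa13, Ndufb10, Ndufv1, Uqcrc1, Uqcrq, Cox6a1, Cox6a2 and Atp5d) WT_LPS was higher without overlap, against 5.36% of all genes, and in 1, Ndufa5, WT_LPS was lower, against 10.3%. Median differences by complex were 0.12 for complex I, 0.12 for complex II, 0.09 for complex III, 0.13 for complex IV and 0.16 for complex V. The median depended on single libraries. Without WT_LPS replicate 1 it was 0.0075, with 45 of 79 members above 0, against -0.009 for all genes. It was 0.23 without WT_LPS replicate 2 and 0.075 without WT_PBS replicate 2, against -0.09 and -0.01. Leaving out the 3 libraries with positive scores removes only WT_LPS replicate 1 from this comparison and gave the same 0.0075. With a term for the number in the sample name it was 0.17, with 74 of 79 members above 0, against -0.08 for all genes. Removing length and GC trends gave 0.05, with 54 of 79 above 0, against -0.06 for all genes. Quantile normalization gave 0.05, with 56 above 0, against -2.7e-05. Median-ratio scaling gave 0.19, with 75 above 0, against 0.007. The 38.5% of all genes above 0 belongs to the fit given first, not to these settings. Without WT_LPS replicate 2, WT_LPS was higher without overlap in 60 of 79 members, against 12.7% of all genes. Without WT_LPS replicate 1 this was so in 11 of 79, against 10.1%, and without WT_LPS replicate 3 in 10 of 79, against 8.11%. Leaving out either WT_PBS library left 1 library in that group, so no such count is given.

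The third difference, KO_LPS minus WT_PBS, shares its libraries with both others and is given beside them only. Here too 0 of 79 members passed, against 0.0497% of all genes (6), and the smallest adjusted p of a member was 0.555 (limma), for Atp5d. An unadjusted p under 0.05 was found for 18 members, against 6.69% of all genes, 6 of them in complex I and 7 in complex V. The difference was above 0 for 75 of 79 members, against 35% of all genes, and the 4 members below 0 were Ndufa5, Ndufs1, Sdha and Cox6b2. The difference had a median of 0.30 for the members and -0.12 for all genes. KO_LPS was higher without overlap in 51 members, against 8.22% of all genes, and lower in 2, Ndufa5 and Cox6b2, against 13.3%. The 51 comprised 24 of 35 members of complex I, 3 of 4 of complex II, 4 of 9 of complex III, 6 of 14 of complex IV and 14 of 17 of complex V. When KO_LPS replicates 1 and 2 and WT_LPS replicate 1 were left out, 1 KO_LPS library remained. The median was then 0.12, with 69 of 79 members above 0, against 0.004 for all genes. After length and GC trends were removed it was 0.14, with 63 above 0, against -0.13. Quantile normalization gave 0.18, with 72 above 0, against -0.005. Median-ratio scaling gave 0.44, with 77 above 0, against 0.01. A term for the number in the sample name gave 0.26, with 75 above 0, against -0.10. The 35% of all genes above 0 belongs to the fit given first, not to these settings.

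**Figure D4:**
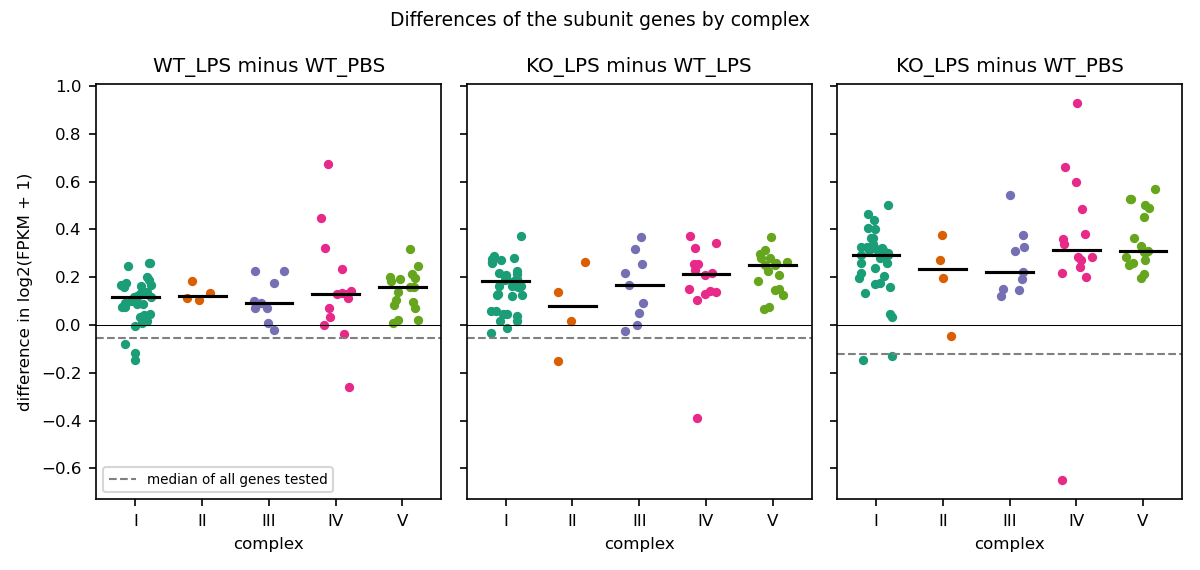
Fitted difference in log2(FPKM + 1) of each tested subunit gene (points), by complex, for the 3 differences between groups; bars are the medians of the complexes and the dashed line is the median of all 12061 genes tested. Most points lie above 0 in each panel and none passed the threshold.

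In complex I, Ndufa4, the highest member, is named for this complex, but its protein is now counted as a subunit of complex IV. It stood at 476, 511 and 388 FPKM in KO_LPS, 468, 306 and 411 FPKM in WT_LPS, and 385 and 348 FPKM in WT_PBS. Ndufa11, a supernumerary subunit of the membrane arm, was at 21.4, 21.6 and 16.9 FPKM in KO_LPS, 19.9, 13.6 and 17.8 FPKM in WT_LPS, and 17.3 and 13.8 FPKM in WT_PBS. In both genes WT_LPS replicate 2 was the lowest library, WT_LPS replicate 1 was higher than KO_LPS replicate 3, and the KO_LPS and WT_LPS groups overlapped.

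Ndufb6, a further supernumerary subunit of the membrane arm, had the smallest p of the complex between KO_LPS and WT_LPS, with 173, 153 and 130.1 FPKM in KO_LPS, 131, 101 and 119 FPKM in WT_LPS, and 108 and 105 FPKM in WT_PBS. The difference KO_LPS minus WT_LPS was 0.37 ± 0.14 (SE) on the log2(FPKM + 1) scale (limma, unadjusted p = 0.0271, adjusted p = 0.765). KO_LPS replicate 3 lay just below WT_LPS replicate 1, so the groups overlapped by that pair alone. Ndufv1, the flavin-bearing core subunit that accepts electrons from NADH, had the smallest p between WT_LPS and WT_PBS, with 92.8, 94.6 and 83.2 FPKM in KO_LPS, 92.9, 79.2 and 91.99 FPKM in WT_LPS, and 73.8 and 72.7 FPKM in WT_PBS. Its WT_LPS values were all above both WT_PBS values, with a fitted difference of 0.26 ± 0.12 (SE; limma, unadjusted p = 0.0677, adjusted p = 0.9998). Ndufs7, a core subunit of the quinone-binding module, was at 113, 98.7 and 104 FPKM in KO_LPS, 92.2, 98.6 and 98.3 FPKM in WT_LPS, and 96.6 and 108 FPKM in WT_PBS, where KO_LPS replicate 2 was just above WT_LPS replicate 2.

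Against the majority of its complex went Ndufs1, the largest core subunit, which carries iron-sulfur clusters near the entry of the electrons. It was at 26.3, 26.7 and 37.4 FPKM in KO_LPS, 28.1, 29.9 and 33.5 FPKM in WT_LPS, and 33.2 and 32.9 FPKM in WT_PBS, lowest in the very libraries that were highest for most members, and it was the 1 member of 79 for which all of these were below the other 5 libraries, against 26% of all genes. Ndufa5, a supernumerary subunit of the matrix arm, was at 48.6, 45.1 and 51.3 FPKM in KO_LPS, 50.5, 45.5 and 47.3 FPKM in WT_LPS, and 54.05 and 51.9 FPKM in WT_PBS. Both WT_PBS values were above all values of KO_LPS and WT_LPS, by small margins. Its differences were 0.02 ± 0.11 (SE) for KO_LPS minus WT_LPS and -0.15 ± 0.12 for WT_LPS minus WT_PBS, with adjusted p-values of 0.963 and 0.9998 (limma).

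The 4 subunits of complex II did not share 1 order of libraries. Sdhb, the iron-sulfur subunit, was at 223, 209 and 167 FPKM in KO_LPS, 181, 145 and 170.1 FPKM in WT_LPS, and 157 and 147 FPKM in WT_PBS, highest in KO_LPS replicates 1 and 2 and WT_LPS replicate 1. Sdha, the flavoprotein that oxidizes succinate, was at 80.7, 79.2 and 108 FPKM in KO_LPS, 97.6, 93.04 and 104 FPKM in WT_LPS, and 86.5 and 96.1 FPKM in WT_PBS. There KO_LPS replicates 1 and 2 were the lowest libraries of all and KO_LPS replicate 3 the highest, so that the difference KO_LPS minus WT_LPS was -0.15 ± 0.14 (SE) for Sdha and 0.26 ± 0.14 for Sdhb (limma, adjusted p = 0.767 and 0.765). The ratio of Sdhb to Sdha in FPKM was 2.76, 2.64 and 1.55 in KO_LPS, 1.86, 1.56 and 1.63 in WT_LPS, and 1.82 and 1.53 in WT_PBS. KO_LPS replicates 1 and 2 stood apart from the other 6 libraries in it, and KO_LPS replicate 3 lay among them. The membrane anchors are Sdhc and Sdhd. Sdhc, with the smallest p of the complex between WT_LPS and WT_PBS, was at 116, 108 and 104 FPKM in KO_LPS, 113, 97.2 and 116 FPKM in WT_LPS, and 102 and 88.9 FPKM in WT_PBS, a difference of 0.18 ± 0.13 (SE; limma, unadjusted p = 0.189, adjusted p = 0.9998). Sdhd was at 113, 112 and 92.7 FPKM in KO_LPS, 108, 84.7 and 95.7 FPKM in WT_LPS, and 91.6 and 83.2 FPKM in WT_PBS, highest in KO_LPS replicates 1 and 2 and WT_LPS replicate 1.

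In complex III, Uqcr11, a small supernumerary subunit, was the highest, with 415, 391 and 348 FPKM in KO_LPS, 379.9, 268 and 350.4 FPKM in WT_LPS, and 312 and 306 FPKM in WT_PBS. Uqcrc2, a core protein of the matrix side, was the lowest of the complex and the steadiest of the 79 members, with 93.8, 89.2 and 90.05 FPKM in KO_LPS, 93.6, 83.3 and 86.8 FPKM in WT_LPS, and 83.5 and 83.5 FPKM in WT_PBS, a ratio of 1.13 between its highest and lowest library. Uqcrc1, its partner core protein, was at 146, 156 and 137 FPKM in KO_LPS, 165, 132 and 143 FPKM in WT_LPS, and 123 and 127 FPKM in WT_PBS, and its WT_LPS values were all above those of WT_PBS, with a fitted difference of 0.23 ± 0.13 (SE; limma, unadjusted p = 0.113, adjusted p = 0.9998). Uqcr10, another small subunit, had the smallest p of the complex between KO_LPS and WT_LPS, with 424, 388 and 301 FPKM in KO_LPS, 303, 243 and 314 FPKM in WT_LPS, and 315 and 254 FPKM in WT_PBS. That difference was 0.37 ± 0.17 (SE; limma, unadjusted p = 0.0552, adjusted p = 0.765), and KO_LPS replicate 3 lay among the WT_LPS values. The subunits that carry out electron transfer, Cyc1 (cytochrome c1) and Uqcrfs1 (the Rieske iron-sulfur protein), differed by -0.03 ± 0.12 and 0.25 ± 0.16 (SE) between KO_LPS and WT_LPS, and neither passed (adjusted p = 0.945 and 0.765, limma).

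**Figure D5:**
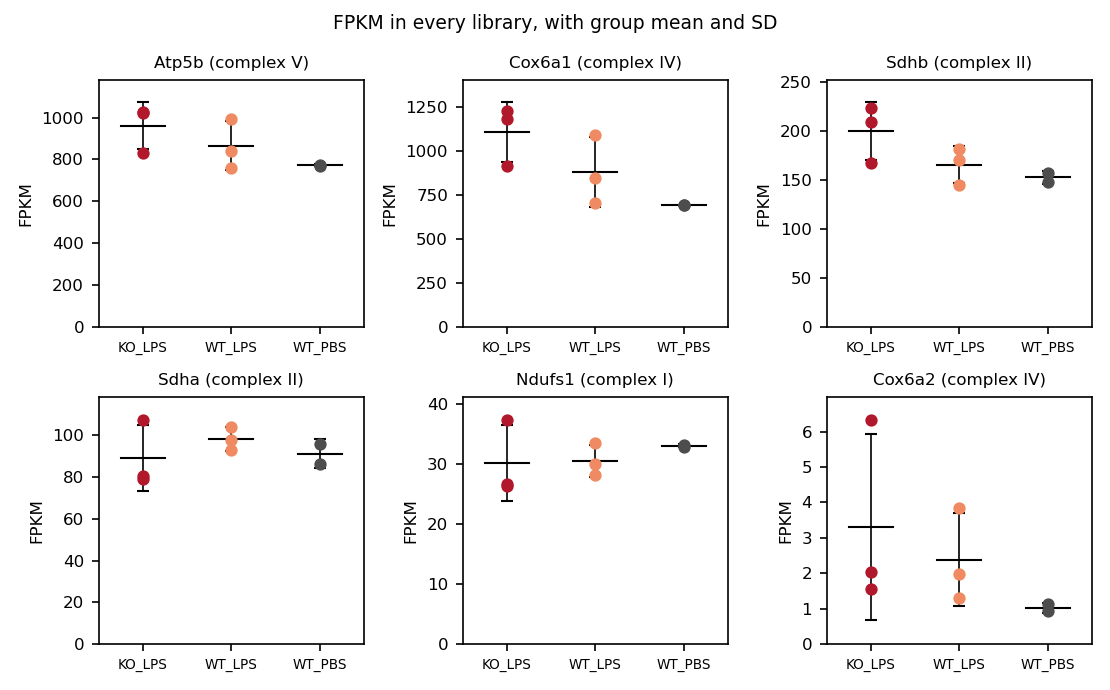
FPKM of 6 subunit genes in every library (points), with the group mean (bar) and SD (whiskers; n = 3, 3 and 2). Atp5b, Cox6a1 and Sdhb have 2 KO_LPS libraries and 1 WT_LPS library at the top, Sdha and Ndufs1 have 2 KO_LPS libraries at the bottom, and Cox6a2 is highest in 1 KO_LPS library.

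Complex IV has subunits with alternative forms, and for each the form used in most tissues was at the higher level. Cox6a1, the form of most tissues, was at 1182, 1228 and 915 FPKM in KO_LPS, 1094, 705 and 845 FPKM in WT_LPS, and 694 and 693 FPKM in WT_PBS. Both WT_PBS values lay below all others, and the difference KO_LPS minus WT_LPS of 0.34 ± 0.18 (SE; limma, adjusted p = 0.765) came with overlap of these groups. WT_LPS minus WT_PBS was 0.32 ± 0.20 (SE; limma, unadjusted p = 0.144, adjusted p = 0.9998), the smallest p of the complex in that comparison. Cox6a2, the form of heart and skeletal muscle, was at 6.34, 1.55 and 2.02 FPKM in KO_LPS, 1.31, 3.85 and 1.98 FPKM in WT_LPS, and 0.92 and 1.12 FPKM in WT_PBS. The ratio of Cox6a1 to Cox6a2 in a library lay between 183 and 835. Cox6a2 was highest in KO_LPS replicate 1 and next in WT_LPS replicate 2, and the 13 skeletal muscle markers summed to 69.6, 21.9 and 24.2 FPKM in KO_LPS, 28.6, 30.8 and 22.8 FPKM in WT_LPS, and 18.9 and 25.7 FPKM in WT_PBS. Ckm, the muscle creatine kinase, was at 8.51, 0 and 0.09 FPKM in KO_LPS, 1.08, 2.57 and 0.25 FPKM in WT_LPS, and 0.25 and 0.39 FPKM in WT_PBS, highest in the same 2 libraries. From 0 to 7 of the 13 markers were at 0 FPKM in a library, and Cox6a2 also overlaps the gene Itgad. The part of muscle transcripts in the level of Cox6a2 was not tested.

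Cox7a2, the general form of subunit 7a, was at 254, 276 and 198 FPKM in KO_LPS, 224, 153 and 185 FPKM in WT_LPS, and 185 and 159 FPKM in WT_PBS, and the muscle and heart form Cox7a1 at 4.19, 7.15 and 7.70 FPKM in KO_LPS, 5.15, 5.28 and 5.99 FPKM in WT_LPS, and 2.60 and 5.24 FPKM in WT_PBS. Cox7a2l, a related protein that joins complexes III and IV into supercomplexes, was at 444, 424 and 272 FPKM in KO_LPS, 404, 302 and 319 FPKM in WT_LPS, and 377 and 276 FPKM in WT_PBS, where KO_LPS replicate 3 was the lowest library of all. Cox4i1, the general form of subunit 4, was at 1001, 954 and 689.8 FPKM in KO_LPS, 916, 708 and 759 FPKM in WT_LPS, and 778 and 656 FPKM in WT_PBS, while Cox4i2, known from lung, was at 0.11, 0.10 and 0.19 FPKM in KO_LPS, 0.37, 0.09 and 0.45 FPKM in WT_LPS, and 0.33 and 0.37 FPKM in WT_PBS. Cox7a2, Cox7a2l and Cox4i1 had their 3 highest values in KO_LPS replicates 1 and 2 and WT_LPS replicate 1, and Cox7a1 and Cox4i2 did not.

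Cox6b1, general, was at 566, 596 and 453 FPKM in KO_LPS, 606, 401 and 505 FPKM in WT_LPS, and 453 and 393 FPKM in WT_PBS, and Cox6b2, known from testis, at 0.50, 0.54 and 0.90 FPKM in KO_LPS, 2.27, 1.09 and 0.44 FPKM in WT_LPS, and 1 and 2.30 FPKM in WT_PBS. For Cox6b2 the difference KO_LPS minus WT_LPS was -0.39 ± 0.32 (SE), the lowest of the 79 members (limma, adjusted p = 0.765). Cox7b had the smallest p of the complex between KO_LPS and WT_LPS, with 144, 143 and 114 FPKM in KO_LPS, 115, 91.6 and 114 FPKM in WT_LPS, and 115 and 104 FPKM in WT_PBS. That difference was 0.32 ± 0.14 (SE; limma, unadjusted p = 0.0477, adjusted p = 0.765), and KO_LPS replicate 3 lay among the WT_LPS values. Its testis relative Cox7b2 was listed at 0 FPKM in 6 libraries and at 0.13 FPKM in KO_LPS replicate 3 and 0.12 FPKM in WT_LPS replicate 1. Cox8a, general, was at 593, 611 and 457 FPKM in KO_LPS, 594, 423 and 493 FPKM in WT_LPS, and 489 and 423 FPKM in WT_PBS. Cox8b, the muscle form, was listed at 0 FPKM in 6 libraries and at 0.51 FPKM in KO_LPS replicate 1 and 0.23 FPKM in WT_LPS replicate 2, the same libraries that were highest for Cox6a2.

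Complex V was the complex with the largest median difference in both comparisons of the design, and 17 of its 17 members were above 0 in each. Of all genes, 42% were above 0 in KO_LPS minus WT_LPS and 38.5% in WT_LPS minus WT_PBS. WT_LPS replicate 2 was the lowest library for 14 of the 17. In KO_LPS minus WT_PBS the median was 0.309 for complex V and 0.312 for complex IV. Atp5b, the catalytic subunit, was at 1027, 1024 and 832 FPKM in KO_LPS, 994, 761 and 843 FPKM in WT_LPS, and 768 and 775 FPKM in WT_PBS. Group means were 961 ± 112 FPKM in KO_LPS (SD, n = 3), 866 ± 118 FPKM in WT_LPS (n = 3) and 772 ± 5.06 FPKM in WT_PBS (n = 2), so the means of the LPS groups differed by less than either SD. Atp5d, the delta subunit of the central stalk, had the smallest p of all members between WT_LPS and WT_PBS, with 264, 266 and 226 FPKM in KO_LPS, 252, 193 and 221 FPKM in WT_LPS, and 174 and 180.0 FPKM in WT_PBS. The WT_LPS values were all above WT_PBS, with a fitted difference of 0.32 ± 0.14 (SE; limma, unadjusted p = 0.0521, adjusted p = 0.9998), and the locus overlaps Cbarp. Atp5pb, the b subunit of the peripheral stalk, was at 173, 169.5 and 159 FPKM in KO_LPS, 150.1, 132 and 139 FPKM in WT_LPS, and 144 and 133 FPKM in WT_PBS. Its 3 KO_LPS values were all above its WT_LPS values, with a fitted difference of 0.25 ± 0.10 (SE; limma, unadjusted p = 0.0344, adjusted p = 0.765).

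The 3 genes Atp5g1, Atp5g2 and Atp5g3 encode the same mature c-ring protein with different import signals. Atp5g2 was at 1008, 1073 and 759 FPKM in KO_LPS, 918, 628 and 833 FPKM in WT_LPS, and 688 and 681 FPKM in WT_PBS. Atp5g3 was at 689, 713 and 526 FPKM in KO_LPS, 618, 432 and 522 FPKM in WT_LPS, and 469 and 436 FPKM in WT_PBS. Atp5g1 was at 287, 262 and 219.8 FPKM in KO_LPS, 247, 190.1 and 219.8 FPKM in WT_LPS, and 195 and 210.1 FPKM in WT_PBS. All of them were highest in KO_LPS replicates 1 and 2 and lowest in WT_LPS replicate 2, and the ratio of Atp5g2 to Atp5g3 varied only between 1.44 and 1.51 in KO_LPS, 1.45 and 1.60 in WT_LPS, and 1.47 and 1.56 in WT_PBS. Their order of levels, Atp5g2 over Atp5g3 over Atp5g1, was the same in every library, though it depends on the transcript lengths the authors used.

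Genes that build or feed the complexes had medians closer to those of all genes than the members did. This held only narrowly for the tricarboxylic acid cycle in WT_LPS minus WT_PBS, at 0.11, against 0.12 for the members and -0.06 for all genes. For this and the lists below, the shares of all genes above 0 were 42% in KO_LPS minus WT_LPS, 38.5% in WT_LPS minus WT_PBS and 35% in KO_LPS minus WT_PBS. Of 48 tested assembly factors, which insert cofactors or join subunits, 17 were above 0 in KO_LPS minus WT_LPS (median -0.10), 17 in WT_LPS minus WT_PBS (median -0.03) and 13 in KO_LPS minus WT_PBS (median -0.22), and 0 passed in any of them (limma), with 0, 0 and 1 at an unadjusted p under 0.05. By library, their median deviation was -0.15, -0.35 and 0.20 in KO_LPS, -0.20, 0.15 and 0.13 in WT_LPS, and -0.02 and 0.21 in WT_PBS, on the same side of 0 as all genes in 7 of 8 libraries. Cox10, which makes the heme of complex IV, was at 22.8, 26.6 and 18.9 FPKM in KO_LPS, 17.1, 18.7 and 17.9 FPKM in WT_LPS, and 17.7 and 17.5 FPKM in WT_PBS, all KO_LPS values above all WT_LPS values, with a fitted difference of 0.32 ± 0.15 (SE; limma, adjusted p = 0.765). Pet117, another factor for complex IV, was at 4.57, 2.93 and 3.07 FPKM in KO_LPS, 1.86, 2.14 and 2.57 FPKM in WT_LPS, and 1.67 and 0.74 FPKM in WT_PBS, and the difference KO_LPS minus WT_PBS was 1.05 ± 0.26 (SE; limma, unadjusted p = 0.00331, adjusted p = 0.419). Uqcc3, a factor for complex III, was at 27.6, 26.8 and 36.8 FPKM in KO_LPS, 38.2, 41.95 and 36.3 FPKM in WT_LPS, and 31.7 and 41.01 FPKM in WT_PBS, with KO_LPS replicates 1 and 2 the lowest libraries. Among the other assembly factors with the 2 smallest p-values of their complex, the difference KO_LPS minus WT_LPS lay between -0.44 ± 0.28 (SE) for Lyrm7 and 0.29 ± 0.16 for Ndufaf8, and WT_LPS minus WT_PBS between -0.41 ± 0.40 for Ndufaf4 and 0.19 ± 0.16 for Cox16.

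Of 17 genes of pyruvate oxidation and the tricarboxylic acid cycle, 7 were above 0 in KO_LPS minus WT_LPS (median -0.04), 10 in WT_LPS minus WT_PBS (median 0.11) and 8 in KO_LPS minus WT_PBS (median -0.02), with 0 passing and 0 at an unadjusted p under 0.05 (limma). Ogdh, a subunit of the oxoglutarate dehydrogenase, was at 19.5, 14.3 and 44.5 FPKM in KO_LPS, 30.6, 44.8 and 44.4 FPKM in WT_LPS, and 28.2 and 44.5 FPKM in WT_PBS, lowest in KO_LPS replicates 1 and 2. Idh3g, a subunit of isocitrate dehydrogenase, was at 152, 154 and 141 FPKM in KO_LPS, 167, 130.3 and 144 FPKM in WT_LPS, and 131 and 123 FPKM in WT_PBS, with WT_LPS replicate 1 the highest library. For 78 proteins of the mitochondrial ribosome, 37, 52 and 42 were above 0 in KO_LPS minus WT_LPS, WT_LPS minus WT_PBS and KO_LPS minus WT_PBS, with medians of -0.01, 0.04 and 0.04. Of these, 0 passed, and 0, 0 and 4 had an unadjusted p under 0.05 (limma). Mrps21, of its small subunit, had the smallest p in WT_LPS minus WT_PBS, at 0.26 ± 0.12 (SE; limma, unadjusted p = 0.0553, adjusted p = 0.9998). Mrpl13, of its large subunit, had the smallest p in KO_LPS minus WT_LPS, at 0.26 ± 0.12 (SE; limma, unadjusted p = 0.0608, adjusted p = 0.765), and was at 103, 109.7 and 96.97 FPKM in KO_LPS, 87.5, 74.3 and 96.4 FPKM in WT_LPS, and 93.95 and 87.99 FPKM in WT_PBS.

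Among 14 tested regulators of mitochondrial biogenesis, 5 were above 0 in KO_LPS minus WT_LPS (median -0.13), 3 in WT_LPS minus WT_PBS (median -0.14) and 2 in KO_LPS minus WT_PBS (median -0.23), with 0 passing and 0 at an unadjusted p under 0.05 (limma). Nrf1, the factor whose core was searched above, named after its values were seen, was at 28.04, 32.4 and 25.1 FPKM in KO_LPS, 25.7, 26.5 and 26.02 FPKM in WT_LPS, and 24.1 and 25.9 FPKM in WT_PBS. Gabpa, the DNA-binding part of GABP, was at 20.6, 25.2 and 22.6 FPKM in KO_LPS, 16.7, 21.8 and 20.8 FPKM in WT_LPS, and 27.9 and 21.8 FPKM in WT_PBS, but it overlaps the subunit gene Atp5j. Polg, the polymerase of mitochondrial DNA, had the smallest p in KO_LPS minus WT_LPS, at -0.44 ± 0.21 (SE; limma, unadjusted p = 0.0675, adjusted p = 0.765). Myc, a growth regulator that also acts on mitochondrial genes and was named here after its values were seen, was at 47.2, 62.2 and 137 FPKM in KO_LPS, 34.4, 164 and 102 FPKM in WT_LPS, and 104 and 217 FPKM in WT_PBS. Its lowest values were in KO_LPS replicates 1 and 2 and WT_LPS replicate 1, and all other libraries were above 100 FPKM.

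Among these lists of mitochondrial genes, the tricarboxylic acid cycle list came closest to the members in WT_LPS minus WT_PBS, with a median of 0.11. Carriers and subunits outside the naming rule came closest in KO_LPS minus WT_LPS and in KO_LPS minus WT_PBS. Of 10 tested, 7 were above 0 in KO_LPS minus WT_LPS (median 0.09), 7 in WT_LPS minus WT_PBS (median 0.07) and 8 in KO_LPS minus WT_PBS (median 0.15), with 0 passing (limma) and 0, 0 and 1 at an unadjusted p under 0.05. Slc25a3, the phosphate carrier that supplies ATP synthase, was at 444, 444 and 390.0 FPKM in KO_LPS, 446, 368 and 399.9 FPKM in WT_LPS, and 357 and 351 FPKM in WT_PBS. Slc25a4, an exchanger of ADP and ATP, was at 159, 132 and 156 FPKM in KO_LPS, 119, 137 and 132 FPKM in WT_LPS, and 131 and 141 FPKM in WT_PBS. Ucp2, an uncoupling protein relative of the inner membrane, was at 934, 981 and 1109 FPKM in KO_LPS, 1281, 923 and 1202 FPKM in WT_LPS, and 869.8 and 975 FPKM in WT_PBS. Higd1a, a small protein that associates with complex IV, was at 16.9, 16.2 and 15.6 FPKM in KO_LPS, 14.1, 11.5 and 12.9 FPKM in WT_LPS, and 12.9 and 12.4 FPKM in WT_PBS, all KO_LPS values above all WT_LPS values, with a fitted difference of 0.32 ± 0.14 (SE; limma, adjusted p = 0.765). AA467197, a relative of Ndufa4, was at 12.01, 9.93 and 12.2 FPKM in KO_LPS, 24.2, 10.8 and 10.3 FPKM in WT_LPS, and 14.5 and 17.6 FPKM in WT_PBS, highest in WT_LPS replicate 1, and Ndufa4l2, another relative, was between 0 and 0.32 FPKM.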

How the data were processed

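RNA of 8 bone marrow libraries was sequenced after preparation with a SMARTER mRNA-Seq kit, per the labels' protocols. The authors deposited 1 table of FPKM for 18020 rows, per the file headers; the builds GRCm38 and mm10 are named in the submitters' processing notes. The sources used here name no aligner, counter or use of strand, so the 26 members that overlap another RefSeq gene, 15 of them a coding gene, may share its reads; processed pseudogenes exist for Uqcrh, Cox5b, Cox7c, Atp5k, Atp5l, Atp5c1 and Atp5pb. Symbols came from RefSeq by gene number for 16798 rows, and 1119 rows were unnamed loci. Groups came from the labels.

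Differences were tested with limma 3.58.1 in R 4.3.3 (trended empirical Bayes, two-sided) on log2(FPKM + 1) over the 12061 rows with a mean of at least 0.5 FPKM, with all 8 libraries in 1 fit and Benjamini-Hochberg adjustment within each comparison at 0.05. For low genes the added 1 FPKM makes differences on this scale too small. Depth in reads is unknown, so no counting interval was given. The number of libraries limits the precision. The fitting script was also run on simulated data, with means and residual spread taken from the fit of these data. Its noise was independent between genes, unlike these data, so it checks the script only. Transcript lengths and GC content came from the longest GENCODE protein-coding transcript, and 93.6% of tested rows and all 79 tested members had one. Another 15 settings were computed beside this fit, and 3 more were added after the data were seen: leaving out the 3 libraries highest on the first principal component, a loess correction for length and GC (span 0.5), and a term for the number in the sample name. This term only separated numbers of 6 or lower from higher numbers.

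Values in every library are given for the highest and lowest tested member of each complex, the member with the smallest p of each complex in each of the 2 main comparisons, and alternative isoforms. Others are named where a sentence singles them out, after their values were seen. Genes named from the other lists are among those with the 2 smallest p-values of a list in a main comparison, except where stated, and not all of these are printed. Single values of some genes are not reported here, though counts and medians include them. The members and lists were chosen with earlier results of these data known.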

Additional observations from a re-analysis of the deposited data

How the results depend on the processing

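None of the 79 members passed the threshold in any of the 3 comparisons under any of the 15 other settings and the 3 added after the data were seen, and no member's difference was called in either direction. The number of genes past the threshold, over all genes, was less stable. For KO_LPS minus WT_LPS it was 10, and became 2 with a filter at 5 FPKM, 0 with only the 2 groups compared in the fit, 5 with no filter, 33 with a term for the number in the sample name, 1 without the 3 libraries highest on the first component, and 0 to 161 when each library was left out. For KO_LPS minus WT_PBS it was 6, and became 3, 0, 0, 59 and 1 under these same settings, 3 with median-ratio scaling, 10 with quantile normalization, and 0 to 125 when each library was left out. The highest counts, 161 and 125, came without KO_LPS replicate 3. For WT_LPS minus WT_PBS it was 0, and 0 to 2 when each library was left out. The cause was not tested.

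The median difference over the members stayed above 0 in all 3 comparisons under every alternative run. For KO_LPS minus WT_PBS it was 0.30 and moved to 0.12 without the 3 libraries highest on the first component. With length and GC trends removed the member medians lay between 0.05 and 0.14. Median-ratio scaling moved the median of all genes in KO_LPS minus WT_PBS to 0.01, against -0.12. No paired analysis was possible because the replicate numbers follow accession order and pair no libraries. The table holds no counts, so what depth limits could not be measured.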
